A study of Mus musculus with 96 samples.

Results

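Fn3k, Gch1, Smox, Ptp4a3, Gmppb and Tfdp2 are 6 genes, of 24321 gene symbols in the deposited table, that were picked from these same cells as higher where the alpha-globin transcript Hba-a1 was high. None of the 6 encodes a globin. The series holds 96 single cells from the marrow of C57BL/6 mice with the genotype Rpl11 +/lox, all labelled erythroid precursor, and its design text places them between burst-forming progenitors (BFU-E) and basophilic erythroblasts of haploinsufficient animals. Rpl11 is a gene of the large subunit of the ribosome. The labels name no Cre driver and no animal, and no wild-type cell is analysed here, so the cells form 1 group and are treated as 1 sample. For that reason no test was made between cells, and no p-value is given. Because the genes were picked on their relation to Hba-a1, their levels along Hba-a1 are a description.

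Erythroid precursors fill with haemoglobin as they mature, while most other transcripts become a smaller part of their RNA. The 6 genes belong to unrelated pathways. Fn3k encodes fructosamine-3-kinase, which starts the removal of sugar adducts from glycated proteins and is known from red cells, where haemoglobin is a substrate. Gch1 encodes GTP cyclohydrolase 1, the first enzyme of tetrahydrobiopterin synthesis, and Smox encodes spermine oxidase, which turns spermine into spermidine. Gmppb encodes the catalytic subunit of the enzyme that makes GDP-mannose, the sugar donor of glycoprotein assembly. Ptp4a3 encodes PRL-3, a phosphatase anchored to membranes by a prenyl group, and Tfdp2 encodes a DP protein, the partner with which E2F transcription factors bind DNA.

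The stretch before the start site is shown for those of the 6 genes with an entry in the RefSeq promoter table (build GRCm38.p6), since it is the DNA next to the transcripts measured. These were Gch1, Smox and Tfdp2, 3 of the 6, with 2 start sites for Tfdp2. Each window is the 250 bases upstream of the start, written along the gene's strand. Capitals mark matches, on either strand, to a GATA motif (the letters GATA with A or T before and A or G after them) or to CACCC, the letters read by GATA and by Krüppel-like factors of erythroid cells. The motifs do not overlap each other in these windows.
Gch1, chr14:47189414-47189663, minus strand: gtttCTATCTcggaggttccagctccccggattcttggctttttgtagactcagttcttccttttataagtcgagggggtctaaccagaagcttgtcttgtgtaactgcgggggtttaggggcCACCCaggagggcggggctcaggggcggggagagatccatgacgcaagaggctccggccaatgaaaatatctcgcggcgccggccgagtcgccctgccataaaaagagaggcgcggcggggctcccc
Smox, chr2:131491612-131491861, plus strand: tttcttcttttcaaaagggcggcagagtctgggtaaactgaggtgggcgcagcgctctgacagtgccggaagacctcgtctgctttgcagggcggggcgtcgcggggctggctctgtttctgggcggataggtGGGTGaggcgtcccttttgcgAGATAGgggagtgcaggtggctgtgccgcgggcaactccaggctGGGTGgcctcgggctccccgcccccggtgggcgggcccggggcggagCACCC
Tfdp2, first start, chr9:96258455-96258704, plus strand: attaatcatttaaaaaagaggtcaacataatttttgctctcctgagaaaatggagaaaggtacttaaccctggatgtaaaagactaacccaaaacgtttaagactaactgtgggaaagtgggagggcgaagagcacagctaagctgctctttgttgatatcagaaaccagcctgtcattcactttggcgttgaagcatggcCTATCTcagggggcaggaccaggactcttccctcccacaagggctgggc
Tfdp2, second start, chr9:96258998-96259247, plus strand: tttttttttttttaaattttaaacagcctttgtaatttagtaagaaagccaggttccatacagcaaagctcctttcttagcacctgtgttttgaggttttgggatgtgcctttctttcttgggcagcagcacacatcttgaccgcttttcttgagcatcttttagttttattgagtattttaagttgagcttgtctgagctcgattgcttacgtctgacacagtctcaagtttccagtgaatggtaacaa

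The Gch1 window held 1 GATA match, beginning 246 bases before the start, and 1 CACCC match. The Smox window held 1 GATA match, 96 bases before the start, and 3 CACCC matches. The first Tfdp2 window held 1 GATA match, 49 bases before the start, and no CACCC, while the second held neither. A GATA match occurred in 26.5% of all 32851 windows of this length and a CACCC match in 52.0%, so these letters are frequent in promoters. The base composition differed widely, with a GC share of 68% for Smox, 59.2% for Gch1, and 45.6% and 37.6% for the first and second Tfdp2 windows. In the same annotation Gch1 lies on chromosome 14, Smox on chromosome 2, Fn3k on chromosome 11, Ptp4a3 on chromosome 15, and both Gmppb and Tfdp2 on chromosome 9.

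Expression is given in RPKM, that is, read number scaled for transcript length and for the mapped reads of the library. A gene took the value of its highest transcript in each cell and was called detected at 1 RPKM. Of the 96 cells, 69 had at least 1000 genes detected. Of these, 11 were set aside because they carried markers of neutrophils, monocytes or macrophages, basophils or mast cells, or T or NK cells, which left 58 cells. Hba-a1 reached 5000 RPKM in 53 of the 58, and these were ordered by Hba-a1 and divided into bands of nearly equal size, a low band (17 cells, 5748 to 307302 RPKM), a middle band (19 cells, 321044 to 443162 RPKM) and a high band (17 cells, 460221 to 570277 RPKM). The other 5 cells, at 104 to 4332 RPKM, are given apart. Estimated depth ran from 1520699 to 11601915 reads per cell with a median of 6925278.

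Gene number, depth and globin share also moved with Hba-a1. The median number of genes detected was 1235 in the high band and 3446 in the low band, median estimated depth was 7918250 and 6600664 reads, and globin transcripts made up 90.9% and 61.6% of a cell's total RPKM. Neutrophil markers at 10 RPKM or more numbered 0 of 10 in every cell of the high band and 0 to 1 of 10 in the low band, and monocyte or macrophage markers numbered 0 of 10 in both. Erythroblast markers numbered 10 to 17 of 19 in high-band cells and 12 to 18 of 19 in low-band cells, but their median summed level was 4845 and 9610 RPKM. Late progenitor markers had a median of 5 of 10 in the high band and 7 of 10 in the low band, with a median summed level of 847 and 4483 RPKM. The part of gene number, depth, globin share and these markers in the values below was not tested.

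Along Hba-a1 the 6 genes did not share 1 pattern. Gch1 and Smox were higher in each band than in the one before it. Gmppb was higher in the middle band than in the low band and level from there, and Ptp4a3 differed by small steps. Fn3k was highest in the middle band. Tfdp2 had nearly the same mean in all of the bands, so that on the deposited scale, among cells with at least 5000 RPKM of Hba-a1, its description as higher in globin-rich cells did not hold.

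**Figure D1:**
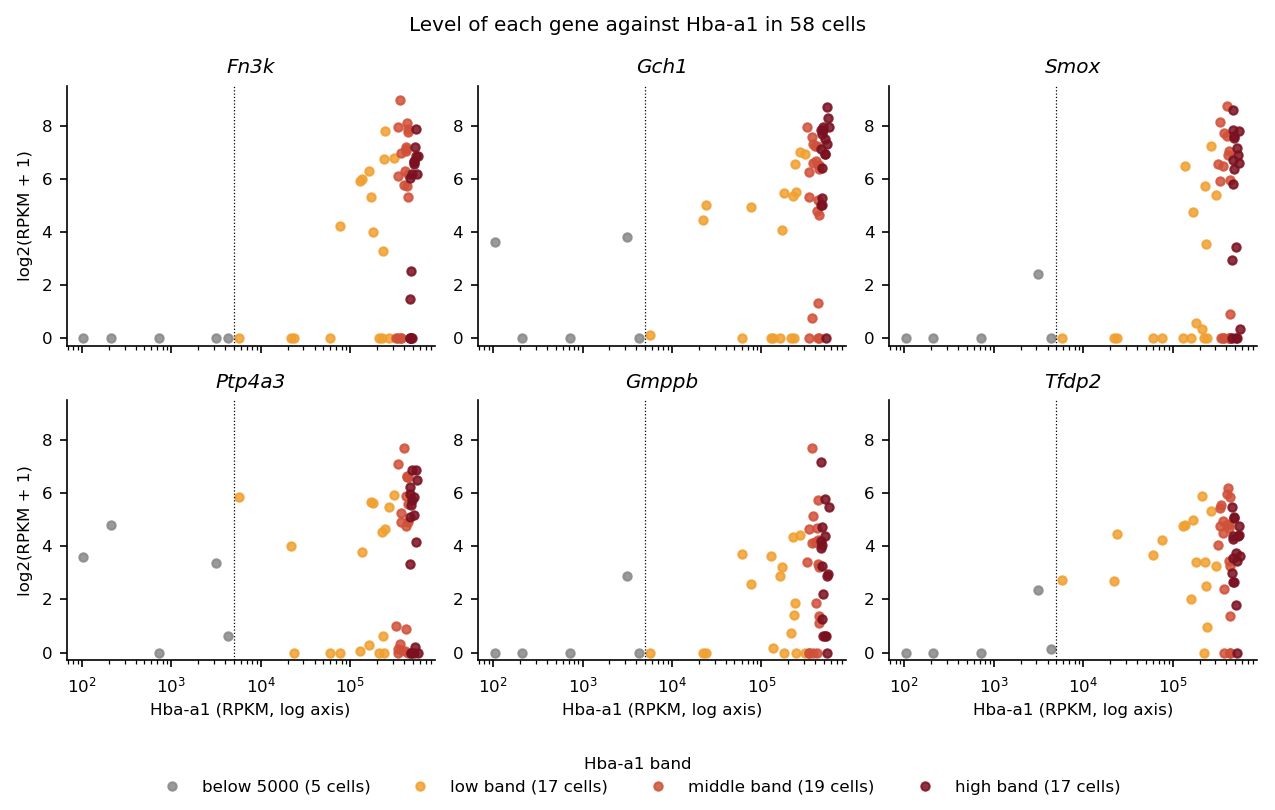
Level of each of the 6 genes in each kept cell, as log2(RPKM + 1), against Hba-a1 in RPKM on a log axis, with 1 point per cell, 58 cells per panel, colours for the Hba-a1 bands and a dotted line at 5000 RPKM. Cells at 0 occur in every band for every gene, and the 5 cells below 5000 RPKM of Hba-a1 lie at the left, with Fn3k at 0 in all of them.

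Gch1 showed the widest separation. It had 0, 157 and 423 RPKM as its lowest, median and highest value in the 17 high-band cells, against 0, 20.9 and 128 RPKM in the 17 low-band cells. It was detected in 16 of 17 high-band cells (94.1%, exact Clopper-Pearson 95% interval 71.3 to 99.9%) and in 10 of 17 low-band cells (58.8%, 32.9 to 81.6%), where the intervals cover counting error only. Both the share of cells and the level within detecting cells were higher, since the median among detecting cells was 169 RPKM in the high band and 41.7 RPKM in the low band. The middle band lay between, with a median of 75.1 RPKM and detection in 15 of 19 cells. On the log2(RPKM + 1) scale, which understates the change of low genes, Gch1 averaged 6.70 ± 2.05 in the high band and 3.26 ± 2.90 in the low band (SD over cells), a difference of 3.44. Gch1 was the only one of the 6 genes whose difference exceeded the SD of both bands, and 10 of 17 high-band cells lay above the highest low-band cell.

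Smox was the other gene with a step at each band. Its lowest, median and highest values were 0, 94.8 and 386 RPKM in the high band, against 0, 0 and 149 RPKM in the low band. The typical low-band cell therefore had no Smox listed, but the upper end of the low band overlapped the high band. Smox was detected in 13 of 17 high-band cells (76.5%, 50.1 to 93.2%) and in 6 of 17 low-band cells (35.3%, 14.2 to 61.7%), and the middle band had 10 of 19. Its mean was 5.04 ± 3.18 in the high band and 2.00 ± 2.78 in the low band, a log2 difference of 3.03 that was less than the SD of the high band.

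Gmppb was a low transcript in all bands. It had a lowest, median and highest value of 0, 8.51 and 145 RPKM in the high band, against 0, 1.65 and 20.3 RPKM in the low band. The middle band resembled the upper one, with a median of 9.63 RPKM and detection in 15 of 19 cells, beside 13 of 17 high-band and 9 of 17 low-band cells. The log2 means were 3.19 ± 2.08 and 1.70 ± 1.72 in the upper and low bands, a difference of 1.49, and the upper and middle bands differed by 0.09. In 4 of 17 high-band cells Gmppb exceeded the highest low-band value.

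Ptp4a3 had 0, 35.7 and 118 RPKM as its lowest, median and highest value in the high band, against 0, 12.8 and 60.1 RPKM in the low band. The share of detecting cells was 12 of 17 in the high band, 9 of 17 in the low band and 11 of 19 in the middle band. The log2 means of 3.97 ± 2.76 in the high band and 2.74 ± 2.61 in the low band gave a difference of 1.24, less than the SD of either band. Of the 6 genes, Ptp4a3 was the one found most often outside the erythroid cells. It was detected in 7 of the 11 cells set aside for markers of other lineages, with a highest value of 40.0 RPKM there, while Gmppb was detected in 4 of these cells, Tfdp2 in 3, Gch1 in 1, and Smox and Fn3k in 0 of 11. The median estimated depth of the set-aside cells was 4150257 reads.

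Fn3k had 0, 70.8 and 235 RPKM as its lowest, median and highest value in the high band, against 0, 15.0 and 220 RPKM in the low band. Only 1 of 17 high-band cells was above the highest low-band cell. The middle band held the highest single value, 503 RPKM, the highest median, 77.2 RPKM, and the largest share of detecting cells, 15 of 19, beside 12 of 17 in the high band and 10 of 17 in the low band. The log2 difference was 0.87 between the upper and low bands, 2.18 between the middle and low bands, and -1.31 between the upper and middle bands. Fn3k was listed at 0 in all 5 cells below 5000 RPKM of Hba-a1 and in all 11 set-aside cells, where 0 of 11 allows a share of up to 27.3% by a limit of 3 counts.

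Tfdp2 was the most widely detected of the 6 genes and the most even. It had a lowest, median and highest value of 0, 12.4 and 44.0 RPKM in the high band, against 0, 9.77 and 58.0 RPKM in the low band, and no high-band cell exceeded the highest low-band cell. It was detected in 16 of 17 high-band cells, 15 of 17 low-band cells and 16 of 19 middle-band cells. The log2 means were 3.67 ± 1.37 in the high band and 3.48 ± 1.57 in the low band, a difference of 0.19. Its contrast lay with the cells below 5000 RPKM of Hba-a1, where it was detected in 1 of 5 cells and from which the high band differed by 3.17. The cell with Tfdp2, cell 64, carried 14 of 19 erythroblast markers, and the rest of the 5 carried 1 to 3. The part of this in the contrast was not tested.

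With a difference of at least 1 on the log2 scale taken as higher, 4 of the 6 genes were higher in the high band (Gch1, Smox, Gmppb and Ptp4a3), beside 0.974% of the 4517 genes compared. With a pseudocount of 10 the number was 2, beside 0.398% of all genes. These 4517 genes had at least 1 RPKM in 10 or more kept cells. From the low to the middle band 4 of the 6 were higher (Fn3k, Smox, Gch1 and Gmppb), beside 1.77% of all genes, and from the middle to the high band 2 of the 6 (Gch1 and Smox), beside 0.819%. All 6 were higher in the high band than in the 5 cells below 5000 RPKM, beside 7.13% of all genes. The genes were picked on Hba-a1, so nothing is read from these counts. Over all 4517 genes the median difference was -2.02, and 3411 genes (75.5%) were lower by 1 or more in the high band. Relative to that median, the 6 genes stood higher by 5.46 (Gch1), 5.05 (Smox), 3.51 (Gmppb), 3.26 (Ptp4a3), 2.88 (Fn3k) and 2.21 (Tfdp2). The differences of Gch1, Smox, Gmppb, Ptp4a3, Fn3k and Tfdp2 ranked 5, 7, 27, 35, 55 and 202 of 4517. The picking bears on these distances and ranks as well, so they are a description only.

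**Figure D2:**
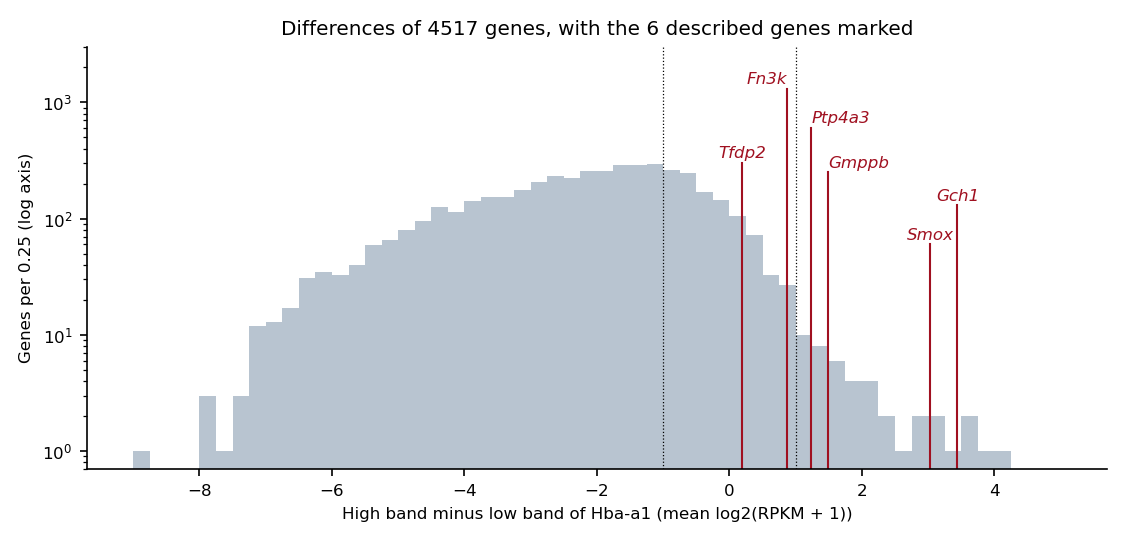
Number of genes, on a log axis, by their difference in mean log2(RPKM + 1) between the high and the low band of Hba-a1, for 4517 genes in bins of 0.25, with dotted lines at -1 and 1. The median gene lies at -2.02, and the red lines mark Tfdp2 at 0.19, Fn3k at 0.87, Ptp4a3 at 1.24, Gmppb at 1.49, Smox at 3.03 and Gch1 at 3.44.

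The scale of the values set the size, and for Tfdp2 the sign, of these differences. The total RPKM of a cell was not constant, with a median of 2514468 in the high band and 1261732 in the low band. It holds near-identical globin copies as separate entries, and the part of this in the rescaled values was not tested. With each cell rescaled to a total of 1000000, Gch1 differed by 2.37 and Smox by 2.27, beside 0.531% of all genes higher by 1 or more, while Gmppb (0.71), Ptp4a3 (0.50) and Fn3k (0.20) fell below a difference of 1 and Tfdp2 reversed to -0.74. With globin transcripts removed before rescaling, all 6 genes differed by more than 1, but more genes in all did as well, 172 of 4506 (3.82%) against 44 of 4517 on the deposited scale. The differences were then 4.95 for Gch1, 4.37 for Smox, 2.79 for Gmppb, 2.31 for Ptp4a3, 1.89 for Fn3k and 1.39 for Tfdp2. The median of all genes was -2.20 with the first rescaling and -2.11 with the second. Each of the 6 genes was above the median gene on the 3 scales. They were picked as higher with Hba-a1, so nothing is read from this.

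The 5 cells below 5000 RPKM of Hba-a1 were not uniform. Cell 64, at 3163 RPKM of Hba-a1, carried 14 of 19 erythroblast markers, no neutrophil or monocyte marker, and 5 of the 6 genes, with Gch1 at 13.2, Ptp4a3 at 9.23, Gmppb at 6.35, Smox at 4.33 and Tfdp2 at 4.13 RPKM. Cell 60, at 4332 RPKM, carried 3 erythroblast and 3 monocyte or macrophage markers and none of the 6 genes at 1 RPKM. The next cells above the line were like cell 64 in their erythroblast markers. Cell 31, at 5748 RPKM of Hba-a1, had 14 erythroblast markers with Ptp4a3 at 56.5 and Tfdp2 at 5.68 RPKM. Cell 79, at 22055 RPKM, had 15 erythroblast markers with Gch1 at 20.9, Ptp4a3 at 14.9 and Tfdp2 at 5.54 RPKM. The 3 remaining cells below the line had 1 to 2 erythroblast markers, 5 to 6 early progenitor markers of 10, 2 to 4 neutrophil markers of 10 and 2 to 4 monocyte or macrophage markers of 10, with summed neutrophil markers of up to 13880 RPKM, although Ltf, Camp, Ngp, S100a8 and Lcn2 were at 0 in all 5 cells. The part of these progenitor and other-lineage markers in the comparison with the 5 cells was not tested.

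When the 5 cells were kept and the bands drawn again with 19 cells at each end, every difference was larger. Fn3k differed by 2.28, Gch1 by 4.30, Smox by 3.30, Ptp4a3 by 1.94, Gmppb by 1.70 and Tfdp2 by 0.71. With these cells included Fn3k passed a difference of 1, and Tfdp2 remained under it. Detection in the redrawn high and low bands was 14 and 8 of 19 cells for Fn3k, 18 and 9 for Gch1, and 17 and 14 for Tfdp2.

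**Figure D3:**
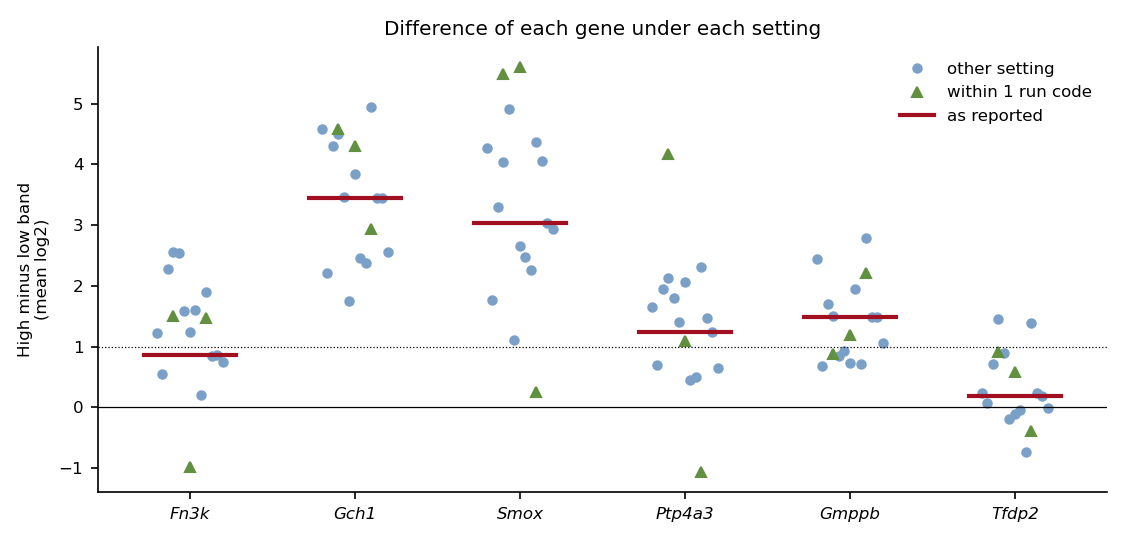
Difference in mean log2(RPKM + 1) between the high and the low band of Hba-a1 for each of the 6 genes under each choice of processing, with a red line for the value as reported, circles for the other choices, triangles for values within 1 run code and a dotted line at 1. Gch1 stays above 1 throughout, from 1.76 to 4.95, while Tfdp2 runs from -0.74 to 1.46.

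The sample descriptions carry 3 run codes, whose meaning the labels do not give. The titles and column headers carry the code SCP-1706080 for every cell, so they conflict with the descriptions, and the values within a code rest on the descriptions alone. By these, the 17 high-band cells were divided among them unevenly, with 11 from SCP-1706080, 4 from SCP-1706013 and 2 from SCP-170608. The low band had 6, 5 and 6 cells from the same codes. Gch1 was higher in the high band within each, by 2.94 in SCP-1706080, 4.58 in SCP-1706013 and 4.30 in SCP-170608. Gmppb differed by 2.21, 0.89 and 1.20 in the same order. Its middle and high bands were level only within SCP-170608, where its low, middle and high log2 means were 1.93, 3.10 and 3.13. In SCP-1706080 these means were 1.00, 2.19 and 3.21, and in SCP-1706013 they were 2.28, 4.58 and 3.16. Smox differed by 5.49 in SCP-1706013 and 5.60 in SCP-170608 but by 0.26 in SCP-1706080, where the low-band median was already 46.6 RPKM. The rise of Smox at each band held only within SCP-1706013. Its log2 means in the low, middle and high bands were 4.24, 5.45 and 4.49 in SCP-1706080. In SCP-170608 they were 1.38, 1.30 and 6.98. Ptp4a3 differed by 4.17 in SCP-1706013 and 1.09 in SCP-170608, and by -1.07 in SCP-1706080, with medians there of 16.9 RPKM in the high band and 46.3 RPKM in the low band. Fn3k differed by 1.50, -0.99 and 1.47 in SCP-1706013, SCP-170608 and SCP-1706080, and Tfdp2 by 0.91, 0.58 and -0.39. The direction for Ptp4a3, Fn3k and Tfdp2 therefore did not hold within every run code, and the SCP-170608 values rest on 2 high-band cells.

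Cells expressed the 6 genes in differing combinations. The median cell had 1 of the 6 detected below 5000 RPKM of Hba-a1, 3 in the low band, and 5 in both the middle and the high band. All 6 were detected together in 5 of 17 high-band cells, 1 of 17 low-band cells and 2 of 19 middle-band cells. Gch1 and Smox were detected together in 12 of 17 high-band cells and 4 of 17 low-band cells. The median number of all genes detected went the other way, from 3446 in the low band to 1235 in the high band. The 6 genes were picked as higher with Hba-a1, so nothing is read from these counts of cells. Across the 53 cells with at least 5000 RPKM of Hba-a1, the highest Spearman rho between any pair of the 6 was 0.37, for Gch1 and Smox, and Fn3k had rho values of -0.03 with Gch1 and -0.06 with Smox. These coefficients are descriptions over single-cell libraries from 1 group that share depth and globin share. With Hba-a1 the rho values over the same cells were 0.55 for Gch1, 0.35 for Smox, 0.31 for Fn3k, 0.27 for Gmppb, 0.24 for Ptp4a3 and -0.03 for Tfdp2. With the 5 cells of low Hba-a1 added, they were 0.61, 0.42, 0.42, 0.38, 0.27 and 0.17 over 58 cells.

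Among 3960 genes, the ones most like each of the 6 by Spearman rho over the 53 cells differed from gene to gene. For Gch1 they were beta-globin transcripts, Hbb-b1, Hbb-bs and Hbb-b2, each at 0.58. Gch1 was picked as higher with Hba-a1, so nothing is read from its likeness to these beta-globin transcripts. These globin genes are near-identical copies, and how reads were assigned among them is not given. High-band medians were 343012 RPKM for Hbb-b1, 338732 RPKM for Hbb-bs, and 306096 RPKM for both Hbb-b2 and its copy Hbb-bt. Each copy enters the globin share and the cell total as its own entry. For Smox they were Alas2 at 0.49, the erythroid enzyme that starts haem synthesis, Tmcc2 at 0.48 and Mir3620 at 0.46. For Ptp4a3 they were Ppp1r15a at 0.56, Syt6 at 0.50 and Alas2 at 0.47. For Tfdp2 they were Ncoa4 at 0.58, the receptor that sends ferritin to degradation, Rbm38 at 0.47 and Nek1 at 0.45. Fn3k had no close companion, with Srek1 at 0.35, Myef2 at 0.35 and Kpna1 at 0.32.

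Gmppb had 1 companion far above the rest, Rnf123 at 0.82, followed by Tab2 at 0.36 and Ppp3cb at 0.33. Rnf123 encodes a ubiquitin ligase subunit, and in the RefSeq annotation its end overlaps that of Gmppb by 252 bases on the opposite strand. The SMART-Seq libraries do not mark strand, so reads in the shared stretch cannot be told apart. Of the 38 kept cells with Gmppb detected, 37 also had Rnf123, and in these the ratio of Gmppb to Rnf123 RPKM had a median of 0.690 with a range of 0.0628 to 2.42. Rnf123 itself differed by 0.17 between the high and low bands, with a median of 15.2 RPKM in the high band and 9.53 RPKM in the low band. Gmppb exceeded Rnf123 in 9 of 17 high-band cells and 3 of 17 low-band cells. Among these, both genes were under 1 RPKM in high-band cells 18, 19 and 48 and in low-band cell 17. Nothing is therefore read from this count. The highest ratio, 2.42, recurred in high-band cell 61, middle-band cell 73 and low-band cell 86. Gmppb and Rnf123 were at 8.247 and 3.406 RPKM in cell 73, and at 5.051 and 2.086 RPKM in cell 86. Cells 17, 18, 19, 48 and 53, with Rnf123 under 1 RPKM, had the same ratio. The Gmppb means and differences given above include these cells. The part of shared reads in the Gmppb values was not tested.

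**Figure D4:**
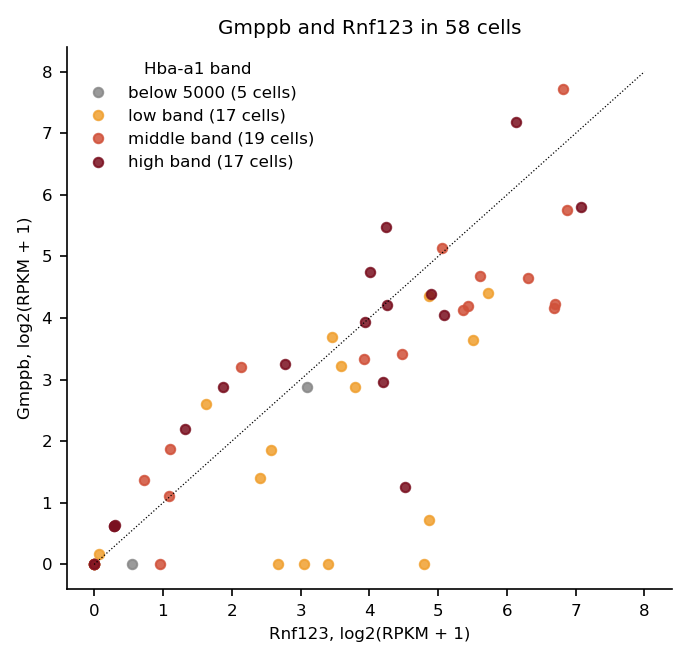
Gmppb against Rnf123 in each kept cell, both as log2(RPKM + 1), with points coloured by Hba-a1 band and a dotted line where both are equal. The genes overlap at their ends on opposite strands, their levels move together with a Spearman rho of 0.82 over the 53 cells of at least 5000 RPKM of Hba-a1, and the ratio has a median of 0.690.

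The enzymes, paralogs and partners of the 6 genes were mostly lower in the high band, as most genes were. Of 46 such genes, 28 were among the genes compared, and of these 0 were higher in the high band by 1 or more, 25 were lower, beside 75.5% of all genes, and 3 lay between, with a median of -2.27 beside -2.02 over all genes. With a pseudocount of 10 the number lower was 16, beside 44.8% of all genes. With no minimum on genes per cell 14 were lower, beside 40.6% of all genes, and 4 were higher, beside 6.78%. The median difference was below 0 in all 6 pathway or family lists. These lists, like the 6 genes, were drawn up with results of these cells known. The counts below of cells with 1 gene above another set a gene picked as higher with Hba-a1 against a listed gene. Since most genes were lower in the high band, nothing about a pair is read from these counts.

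In tetrahydrobiopterin synthesis, Pts and Pcbd2 were lower. Pts, the enzyme of the step after Gch1, was listed at 0 in all 17 high-band cells, which allows a share of up to 17.6% by a limit of 3 counts, and was detected in 10 of 17 low-band cells with a median of 49.1 RPKM. Its mean differed by -3.41, and that of Pcbd2, a recycling enzyme, by -3.03. Gch1 exceeded Pts in 16 of 17 high-band cells and 7 of 17 low-band cells. Spr, Gchfr and Qdpr were in too few cells to be compared, and Pcbd1 was in no kept cell.

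Among the polyamine genes, Sat1, the acetyltransferase that prepares spermine and spermidine for breakdown or export, ran opposite to Smox. Sat1 was detected in 1 of 17 high-band cells and in 12 of 17 low-band cells, where its median was 78.7 RPKM, and its mean differed by -4.19. Smox exceeded Sat1 in 13 of 17 high-band cells and 4 of 17 low-band cells. Of the 8 polyamine genes compared, 7 were lower, beside 75.5% of all genes. Among the 7 were the synthases Srm (-2.15) and Sms (-1.19), and the decarboxylase Odc1 (-1.05) that starts the pathway. Oaz1 (-1.43), the antizyme that inhibits Odc1, was lower too. Amd1 and Amd2 (-2.79 and -2.80), both counted among the 7, are near-identical copies whose values are uncertain. Odc1 was still detected in 16 of 17 cells of both bands, with medians of 132 RPKM in the high band and 225 RPKM in the low band, and Azin1, the antizyme inhibitor, differed by -0.23.

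Around Gmppb, all 6 genes listed for GDP-mannose and dolichol-mannose synthesis that could be compared were lower, beside 75.5% of all genes. Their median was -3.65, beside -2.02 over all genes. With 6 genes, nothing about the pathway is read from this count. Pmm1, a phosphomannomutase that supplies the substrate of Gmppb, was detected in 1 of 17 high-band cells and 14 of 17 low-band cells and differed by -4.85. Its relative Pmm2 differed by -3.37, and the 3 subunits of dolichol-phosphate-mannose synthase by -1.64 (Dpm1), -4.15 (Dpm2) and -3.94 (Dpm3). Hk1, a hexokinase counted among the 6, differed by -2.08. Gmppa, the regulatory partner of Gmppb, was in too few cells to be compared.

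For the DP proteins, the bands differed in the paralog of Tfdp2 rather than in Tfdp2 itself. Tfdp1, which encodes the other DP protein, was detected in 2 of 17 high-band cells and 15 of 17 low-band cells, with a median of 0 in the high band and 41.2 RPKM in the low band, and differed by -4.31. Tfdp2 exceeded Tfdp1 in 15 of 17 high-band cells and 4 of 17 low-band cells, with 9 of 19 in the middle band. Tfdp2 itself differed little between the bands, as given above. Of the E2F factors and pocket proteins, E2f4 differed by -2.99, E2f8 by -2.66, Rbl1 by -2.02, E2f1 by -1.45, E2f5 by -1.25 and Rb1 by -1.24. E2f2, an activator with a known part in erythroblast division in mice, was the exception at 0.38, with medians of 7.41 RPKM in the high band and 2.43 RPKM in the low band.

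For the phosphatases, Ptp4a2 differed by -2.39 and Ptp4a1 by -0.78. Ptp4a3 exceeded Ptp4a2 in 11 of 17 high-band cells and 5 of 17 low-band cells, and Ptp4a1 in 12 and 9 of 17. The CNNM magnesium transporters that bind these phosphatases were in too few cells to be compared, Cnnm1 in none. Fn3krp, the paralog of Fn3k that acts on other sugar adducts, differed by -1.03 and was detected in 8 of 17 high-band and 11 of 17 low-band cells. Fn3k exceeded Fn3krp in 8 and 7 of 17 cells of the high and low bands, and in 12 of 19 cells of the middle band.

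**Figure D5:**
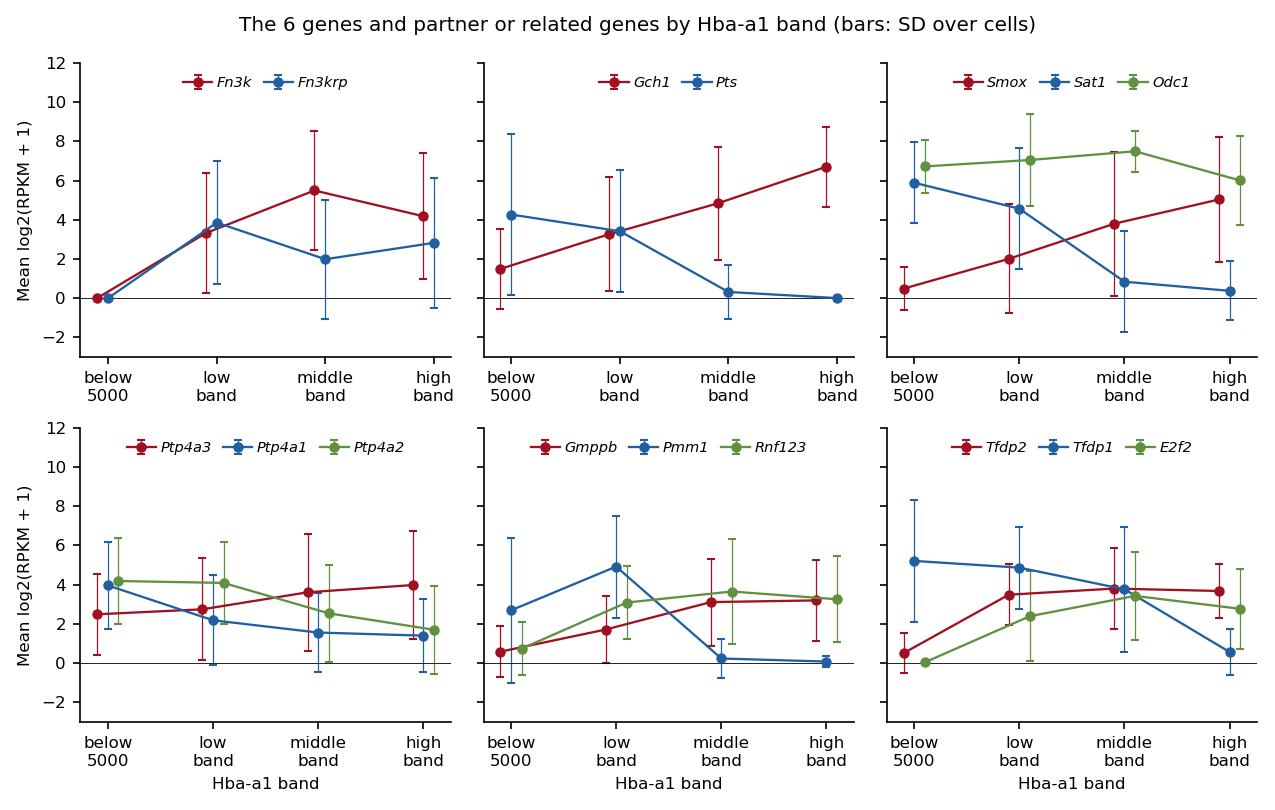
Mean log2(RPKM + 1) of the 6 genes (red) and of partner or related genes (blue and green) in cells below 5000 RPKM of Hba-a1 and in the low, middle and high band, with bars for the SD over 5, 17, 19 and 17 cells. Gch1 and Smox climb across the bands as Pts and Sat1 decline, and Tfdp1 is above Tfdp2 in the low band and below it in the high band.

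The transcript entries of a gene gave similar values. The 9 Smox entries differed by 2.72 to 3.03 between the high and low bands, the 4 Ptp4a3 entries by 1.16 to 1.22 and the 6 Tfdp2 entries by -0.06 to 0.28. Fn3k was the exception, with 0.87 for its entry of 1047 bases, which held the highest value in all 37 detecting cells, and 0.35 for its entry of 3841 bases. The reads behind 1 RPKM were estimated for the shortest entry of each gene, while a gene took the value of its highest entry. For Ptp4a3 the shortest entry, of 2270 bases, was the highest in 0 kept cells. At the median depth, 1 RPKM stood for an estimated 6.82 reads of Smox, 7.25 of Fn3k, 9.90 of Gmppb, 15.3 of Tfdp2, 15.7 of Ptp4a3 and 19.2 of Gch1. In the shallowest cell it stood for under 3 reads for Smox (1.50), Fn3k (1.59) and Gmppb (2.17).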

How the data were processed

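Single cells were captured on the Fluidigm C1 system, amplified with SMART-Seq chemistry and made into libraries with Nextera XT, per the labels' protocols. TopHat2 2.0.9 and the mouse build mm9 are named per the submitters' processing notes, and how reads were counted is not given in those sources. RPKM values, computed by the authors and deposited, cover 34899 transcript entries. They are not counts, so no count model was used. The members and gene lists were chosen with earlier results of these data known.

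A cell was kept with at least 1000 genes at 1 RPKM and without markers of another lineage (at least 3 markers and 50% of a list at 10 RPKM). No doublet caller was run. The cells at 5000 RPKM of Hba-a1 or more were split into 3 bands. Means are of log2(RPKM + 1), with a pseudocount of 1, and a difference of 1 or more was called higher. Depth was estimated from the steps of RPKM times transcript length, with a median of 67.7% of the values used whole within 0.06 of a read. The estimate was checked on simulated data. Named genes were the 6 members, their listed pathway or family genes past a difference of 1 or seen in 50% or more of 1 band, and the 3 genes of highest rho per member. Of the listed genes, 1 is counted but not reported here. Python 3.11.15, pandas 2.3.3, numpy 2.4.6, scipy 1.17.1 and matplotlib 3.10.9 were used. Alternatives covered the pseudocount, gene minimum, ordering, scaling, transcript choice, set-aside cells, run code and size of difference.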

Additional observations from a re-analysis of the deposited data

How the results depend on the processing

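The number of the 6 genes higher in the high band was 4 as reported, beside 0.974% of all genes. It was 2 with a pseudocount of 10, beside 0.398%, and 2 with each cell rescaled to a total of 1000000, beside 0.531%. At a difference of 2 or more it was also 2. It was 3 to 6 under the other 14 alternatives, 1 of which, adding cells under 1000 genes with at least 1000000 estimated reads, was chosen after seeing the data and gave 3. The number of pathway or family genes higher was 0 as reported. It was 4 with no gene minimum, beside 6.78% of all genes, and 1 with globins removed, beside 3.82%. It was 1 with the cells below 5000 RPKM of Hba-a1 kept and 2 at 2000 or more genes per cell. Within SCP-1706013 it was 1, and within SCP-170608 it was 3. The number lower was 25 as reported, beside 75.5% of all genes. It was 16 with a pseudocount of 10, beside 44.8%, and 14 with no gene minimum, beside 40.6%. The share over all genes is not given for the other alternatives, so nothing is read from their counts. Ptp4a3 reversed to -1.07 within SCP-1706080. Over 16 alternatives the difference was at least 1 in 16 for Gch1 (1.76 to 4.95), 15 for Smox (0.26 to 5.60), 11 for Ptp4a3 (-1.07 to 4.17), 10 for Gmppb (0.68 to 2.79), 10 for Fn3k (-0.99 to 2.56) and 2 for Tfdp2 (-0.74 to 1.46). Keeping the set-aside cells gave identical differences for the 6 genes, since all 11 had Hba-a1 below 5000 RPKM, and 26 pathway or family genes lower. No paired analysis was possible because all cells form 1 group. With 17 cells in each outer band, intervals on detection are wide, and the design holds no wild-type cell or named animal.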

Other observations

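The cells left out for having under 1000 genes held the 6 genes unevenly. In 5 of these 27 cells the estimated depth was at least 1000000 reads, with 462 to 897 genes detected and Hba-a1 at 471780 to 594269 RPKM. Smox was detected in 5 of the 5, at 1.91 to 376 RPKM, Gmppb and Tfdp2 in 4 each, Gch1 in 3, Ptp4a3 in 2 and Fn3k in 1, and the highest Gch1 value was 1132 RPKM. In the other 22 cells, whose depth was lower or could not be estimated, a median of 0.5 and at most 3 of the 6 genes were detected. Gch1 was detected in 9 of the 22, Gmppb in 4, Ptp4a3 and Tfdp2 in 2 each, and Fn3k and Smox in 1 each. Within these 22 cells Gmppb passed 1000 RPKM in 3 cells, up to 5974 RPKM, and Gch1 reached 1357 RPKM in 1 cell.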
